A study of Homo sapiens with 12 samples.

Results

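The retinoid pathway was examined through 9 genes that carry retinol, make and break down retinoic acid, and respond to it: RBP4, STRA6, CRABP1, CRABP2, ALDH1A1, ALDH1A2, DHRS3, CYP26A1 and RARB. They were chosen by gene symbol among the 61806 genes of the table, and each symbol matched 1 row. The RNA came from H1, a wild-type (WT) human embryonic stem cell line, whose cells were all first directed to mesendoderm with the WNT activator CHIR99021. NP-IWP2 cells then stayed in static culture and received IWP2, an inhibitor of WNT secretion, from Day 2. P-DF cells (Pass-ctrl in the labels) were dissociated and replated on Day 2 and then differentiated spontaneously, with no IWP2 in the DF medium. In P-IWP2 (Pass-IWP2) the same passaging was followed by IWP2. The protocol of the study gives IWP2 for a few days only, so in NP-IWP2 and P-IWP2 it ended well before Day 12. There were 2 libraries for each of the 3 treatments on Day 12 and on Day 16 of differentiation, 12 in all. P-IWP2 and NP-IWP2 both received IWP2 and differ in passaging, P-IWP2 and P-DF differ in IWP2, and P-DF and NP-IWP2 differ in both, since static cells without IWP2 were not analysed here. The study replated cells at several split ratios and states that a ROCK inhibitor was added in its later differentiation experiments. The titles of these libraries give neither, so a part of either cannot be told apart from that of dissociation. All cells came from 1 line, and the labels do not say that libraries of a group came from separate cultures, so the p-values measure only the spread between these libraries.

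Retinol is carried in blood by RBP4, which the liver secretes together with transthyretin (TTR), and it enters cells through the membrane receptor STRA6. Inside the cell, retinol is oxidized to retinaldehyde, largely by RDH10, a step that DHRS3 reverses, and ALDH1A enzymes oxidize retinaldehyde to retinoic acid. CRABP proteins bind retinoic acid in the cytosol, CYP26 enzymes degrade it, and it acts on RAR and RXR receptors at DNA. In the heart, retinoic acid is known for patterning the atrial and inflow regions, and the epicardium is a source of it.

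Among the genes held to respond directly to retinoic acid, RARB had counts in all libraries and CYP26A1 in none. Their promoters are shown because both hold the same kind of receptor site. The RefSeq promoters of all 9 members (22 windows of GRCh38.p14, each from 250 bases before to 50 bases after a start) were searched on both strands for direct repeats of the half-site AGGTCA, in which the first base could also be G and the third base also T. A repeat with a spacer of 5 bases, named DR5, was found in 2 of the 22 windows, 1 of RARB and 1 of CYP26A1, and in 31 of all 35116 windows (0.0883%). Repeats with a spacer of 1 base (46 windows, 0.131%) or 2 bases (14 windows, 0.0399%) were found in none of the members' windows. The 30 bases around each DR5 are given on the plus strand with the repeat in capitals, and the CYP26A1 repeat reads in the other direction.
RARB chr3:25428204-25428233: gggtagGGTTCACCGAAAGTTCActcgcat
CYP26A1 chr10:93073797-93073826: taaagaTGAACTTTGGGTGAACTaattgtc
The RARB repeat spans 53 to 37 bases before its RefSeq start and the CYP26A1 repeat 90 to 74 bases before its own. Longer GENCODE transcripts of both genes run over these positions. A match of letters is a description and shows no binding.

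Between 14885589 and 19176239 reads were counted per library, so that the limit which a count of 0 allows, 3 counts, lay between 0.156 and 0.202 CPM, the count of a gene scaled to the library total. FPKM, the reads of a gene scaled to its exon length and to the reads counted in the library, is used below for levels. Differences are log2 fold changes from edgeR's quasi-likelihood test over 19505 genes, and a gene was called at an adjusted p under 0.05. Their standard error (SE) was derived as the absolute log2 fold change divided by the square root of the test's F statistic. The Day 12 library labelled P-IWP2 replicate 5 stood apart from replicate 6. Its summed FPKM of 6 stromal markers was 673 against 31.6, that of 11 epicardial markers 224 against 50.9, and that of 11 cardiomyocyte markers 2319 against 4862. All groups share an estimate of the spread, and leaving out either library of this pair raised the members' calls for P-DF on Day 12 from 1 to 5. Without replicate 5 the Day 12 P-IWP2 group holds 1 library. Calls that involve this group then take their spread from the other groups.

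**Figure D1:**
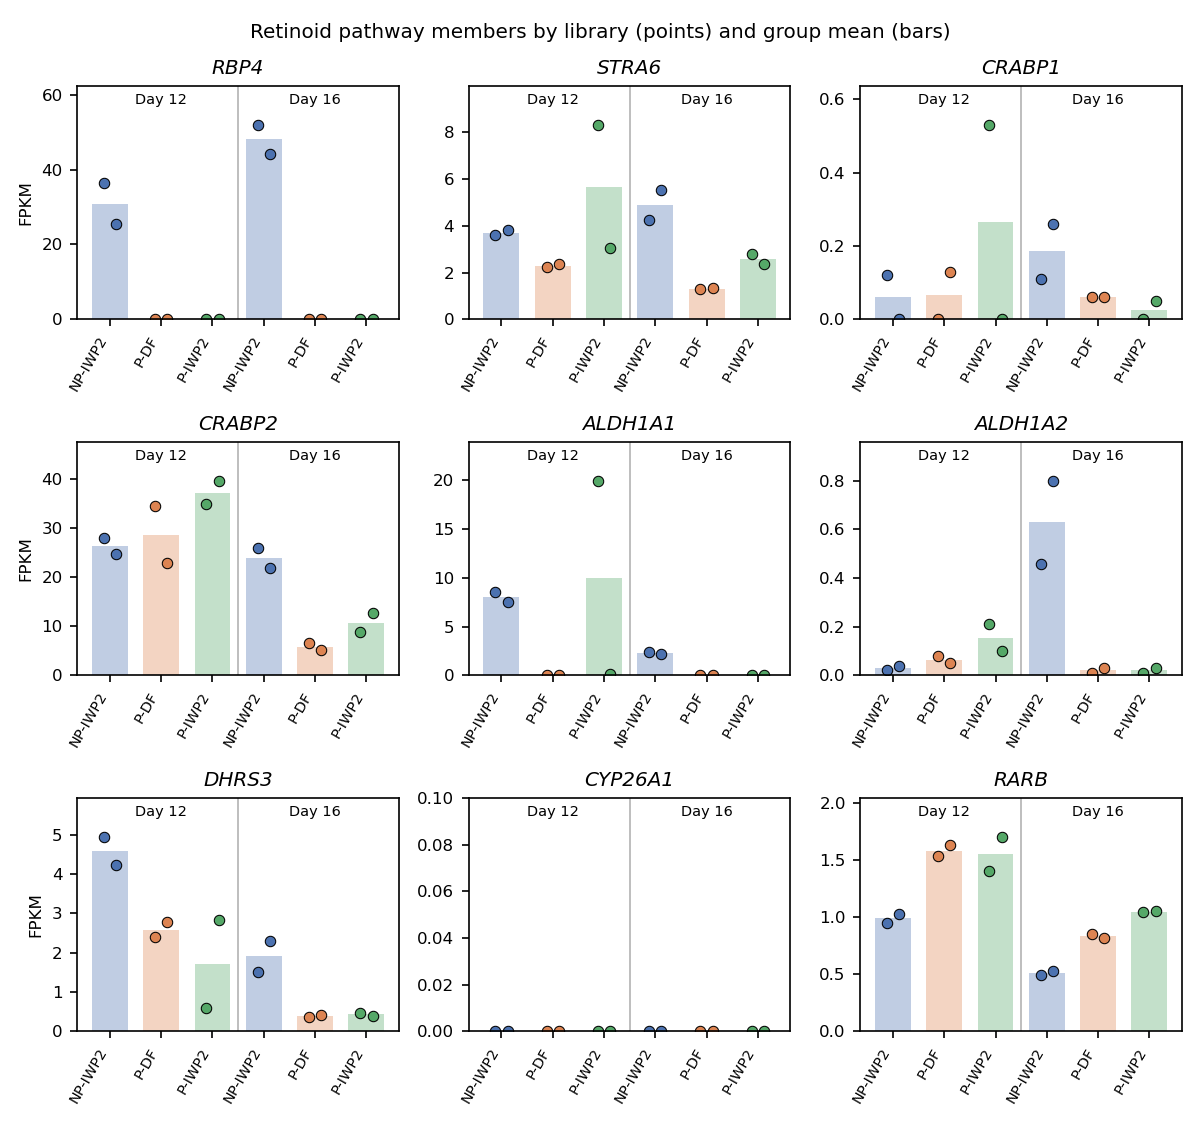
FPKM of the 9 members (vertical axes, each starting at 0) in NP-IWP2, P-DF and P-IWP2 libraries on Day 12 and Day 16; points are libraries and bars are means of 2. RBP4 stands above 25 FPKM in the NP-IWP2 libraries and at 0.04 FPKM or less in the passaged ones, and CYP26A1 is at 0 in all 12.

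Of the carriers and receptors of retinol, RBP4 (ENSG00000138207, chr10:93591687-93601744, minus strand) showed the largest difference. It was at 36.3 and 25.4 FPKM in NP-IWP2 cells on Day 12 and at 51.9 and 44.3 FPKM on Day 16. In the 8 passaged libraries its count was 1 in each Day 12 P-IWP2 library and 0 in the other 6. Passaged and static libraries thus did not overlap on either day. RBP4 in static cells was at least 466-fold higher than in P-DF cells on Day 12 and at least 803-fold higher on Day 16, with 3 counts over the group as the limit. Against P-IWP2 it was at least 877-fold higher on Day 16, and on Day 12 the ratio was 730 (95% counting interval 202 to 6032, from 2 counts). These 4 differences were called (adjusted p = 0.000386 and 0.000128 for P-DF, 0.000417 and 0.000138 for P-IWP2). The hepatic markers moved with RBP4. The summed FPKM of the 14 markers was 496 to 1052 in NP-IWP2 libraries and 5.96 to 20.1 in passaged ones, where the marker APOC3 had no count in any library. On both days all 14 were called lower with P-DF than with NP-IWP2, against 3.32% (Day 12) and 9.86% (Day 16) of all genes. With P-IWP2, 13 were called lower on Day 12 and 14 on Day 16, against 1.33% and 9.95% of all genes. The marker not called on Day 12 was ALB (-1.68 ± 0.54, adjusted p = 0.221). The part of the hepatic markers in the RBP4 difference was not tested, and in bulk RNA fewer cells of a type and less RNA per cell cannot be told apart.

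STRA6 (ENSG00000137868, chr15:74179466-74212267, minus strand), the membrane receptor for RBP4, was expressed in all 12 libraries. Its Day 12 levels were 3.62 and 3.81 FPKM in NP-IWP2, 2.23 and 2.35 FPKM in P-DF, and 8.32 (replicate 5) and 3.04 FPKM in P-IWP2. Its Day 16 levels were 4.24 and 5.53 FPKM in NP-IWP2, 1.28 and 1.32 FPKM in P-DF, and 2.80 and 2.36 FPKM in P-IWP2. The P-DF libraries were the lowest on each day, and on Day 16 the 3 treatments did not overlap. The Day 16 difference of P-DF from NP-IWP2 was called (log2 fold change -1.67 ± 0.32, adjusted p = 0.00995), while that of P-IWP2 was not (-0.64 ± 0.31, adjusted p = 0.179). Without Day 12 P-IWP2 replicate 5, the latter was called as well (-0.64 ± 0.12, adjusted p = 0.00148; 0.00132 to 0.496 over the alternatives). CCDC33, on the opposite strand, overlaps STRA6 and held 6 to 37 counts per library against 158 to 997 for STRA6; whether the counting used strand is not given in the sources used here.

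CRABP2 (ENSG00000143320, chr1:156699606-156705816, minus strand), which passes retinoic acid to its nuclear receptors, was, with RBP4, the member with the highest level per length. The NP-IWP2 libraries of Day 12 showed 28.1 and 24.7 FPKM, those of P-DF 34.4 and 22.9 FPKM, and those of P-IWP2 34.8 and 39.6 FPKM. By Day 16 the NP-IWP2 libraries showed 26.0 and 21.9 FPKM, but those of P-DF 6.49 and 5.08 FPKM and those of P-IWP2 8.79 and 12.7 FPKM. The treatments were close or overlapped on Day 12, and all 4 passaged libraries were below both static ones on Day 16. The Day 16 difference was called for P-DF (-1.83 ± 0.29, adjusted p = 0.00474) and missed the threshold for P-IWP2 (-0.88 ± 0.28, adjusted p = 0.061). CRABP1 (ENSG00000166426, chr15:78340353-78348225, plus strand), its close relative, was barely read. Its highest count was 8, in Day 12 P-IWP2 replicate 5, the other 11 libraries held 0 to 4 counts, and it did not pass the filter on low counts. Exons of an opposite-strand gene, at 0 in all libraries, cover 45.9% of its exonic bases.

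Of the enzymes that make retinoic acid, ALDH1A1 (ENSG00000165092, chr9:72900671-73080442, minus strand) was above 2 FPKM in static cells and in 1 passaged library, and held 4 counts or fewer in the other 7. It was at 8.58 and 7.48 FPKM in NP-IWP2 cells on Day 12 and at 2.36 and 2.23 FPKM on Day 16. P-DF cells held 2 counts and 1 count on Day 12 and none on Day 16. The P-IWP2 libraries on Day 12 were at 19.95 FPKM (886 counts, replicate 5) and 0.09 FPKM (4 counts, replicate 6), and those of Day 16 held no count. Static and P-DF libraries did not overlap on either day. In static cells ALDH1A1 was 235-fold higher than in P-DF on Day 12 (95% counting interval 80.2 to 1143, from 3 counts) and on Day 16 at least 74.4-fold higher than in P-DF and at least 81.3-fold higher than in P-IWP2 cells. None of these was called with all 12 libraries (adjusted p = 0.107, 0.1 and 0.0907), where the 886 and 4 counts of replicates 5 and 6 enter the estimate of the spread. Without replicate 5 all were called, with adjusted p = 2.13e-07, 1.15e-06 and 1.09e-06 (over the alternatives 3.85e-56 to 0.405, 3.88e-38 to 0.295 and 5.45e-39 to 0.271). ALDH1A1 stood above 2 FPKM in the libraries with the highest summed FPKM of stromal, epicardial and endoderm markers. Summed stromal markers were 681 to 1217 FPKM in NP-IWP2 and 673 FPKM in Day 12 P-IWP2 replicate 5, against 19.7 to 31.6 FPKM in the other 7 passaged libraries. Summed epicardial markers were 119 to 163, 224 and 27.9 to 50.9 FPKM in the same order. The summed 7 markers of definitive endoderm and gut separated the same libraries, with 63.0 to 75.9, 107.9 and 44.2 to 52.2 FPKM. Single markers did not all follow these sums. In P-IWP2 against NP-IWP2 on Day 12, with both P-IWP2 libraries, 2 of 6 stromal markers were called lower (LUM at -7.65, DCN at -4.72). So were 1 of 10 epicardial markers tested (UPK3B, -4.18) and 2 of 7 endoderm markers (EPCAM, -1.37, and CDH1, -4.13). None was called higher, and 1.33% of all genes were called lower. Median log2 fold changes of the lists were -1.17, -0.16 and -3.65 in that order. The part of these markers in the ALDH1A1 difference was not tested. The summed hepatic markers were at 8.45 FPKM in replicate 5 and 8.42 FPKM in replicate 6, while single ones went either way. Without replicate 5, log2 fold changes of P-IWP2 against P-DF on Day 12 went from 3.68 to 2.23 (AFP) and 0.71 to 1.68 (FGG). With all libraries neither was called (AFP SE 1.065, adjusted p = 0.434, and FGG SE 1.37, adjusted p = 0.855), so these shifts are uncertain.

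**Figure D2:**
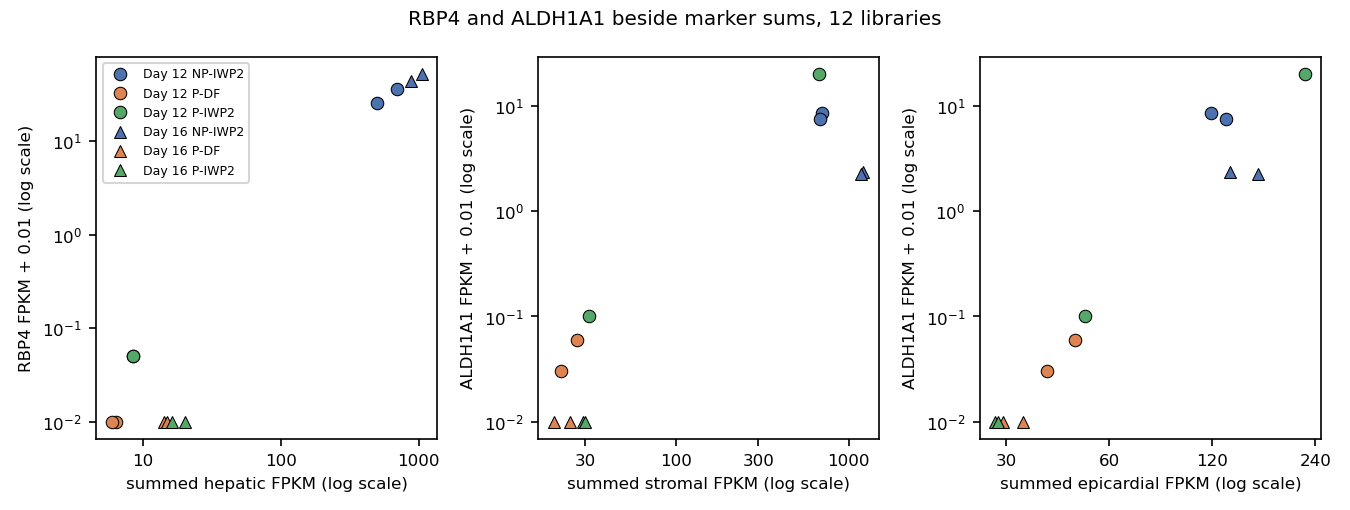
RBP4 against the summed FPKM of 14 hepatic markers, and ALDH1A1 against the summed FPKM of 6 stromal and of 11 epicardial markers, in 12 libraries (log axes, 0.01 FPKM added to the member's level); colours mark treatments, circles Day 12 and triangles Day 16. RBP4 is high in the 4 NP-IWP2 libraries alone, and ALDH1A1 in those 4 and in Day 12 P-IWP2 replicate 5, which lies at 673 FPKM of stromal and 224 FPKM of epicardial markers.

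ALDH1A2 (ENSG00000128918, chr15:57953424-58497866, minus strand), the main retinaldehyde dehydrogenase of the early embryo and of the epicardium, was low in all groups, rose with time in static cells and fell in P-IWP2. On Day 12 this gene held 3 and 5 counts in NP-IWP2, 10 and 7 in P-DF, and 27 and 13 in P-IWP2 cells. On Day 16 it held 72 and 105 counts in NP-IWP2, or 0.46 and 0.80 FPKM, and 1 and 4 counts in each passaged group. Static cells were thus the lowest on Day 12 and the highest on Day 16, without overlap. The Day 16 difference was called for P-DF (-4.84 ± 0.67, adjusted p = 0.00239) and P-IWP2 (-4.90 ± 0.67, adjusted p = 0.00233), while the Day 12 differences were 1.30 ± 0.71 (adjusted p = 0.317) and 2.33 ± 0.65 (adjusted p = 0.148). LIPC, a hepatic lipase gene on the opposite strand, overlaps ALDH1A2 without sharing exonic bases and held 0 to 81 counts.

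DHRS3 (ENSG00000162496, chr1:12567910-12618210, minus strand), the reductase that returns retinaldehyde to retinol, had its highest libraries in static cells on both days. Static cells stood at 4.94 and 4.22 FPKM on Day 12, P-DF at 2.39 and 2.78 FPKM, and P-IWP2 at 0.60 (replicate 5) and 2.84 FPKM. By Day 16 static cells stood at 1.51 and 2.30 FPKM, P-DF at 0.37 and 0.41 FPKM, and P-IWP2 at 0.47 and 0.40 FPKM. Static and passaged libraries did not overlap on either day, nor did the days overlap within any treatment. The Day 16 differences of -2.03 ± 0.63 (P-DF, adjusted p = 0.0581) and -1.84 ± 0.62 (P-IWP2, adjusted p = 0.0707) missed the threshold with all libraries and passed it without replicate 5 (adjusted p = 5.3e-05 and 9.39e-05; 1.98e-07 to 0.231 and 2.82e-06 to 0.272 over the alternatives).

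CYP26A1 (ENSG00000095596, chr10:93073475-93077885, plus strand), which degrades retinoic acid and is itself induced by it, had a count of 0 in all 12 libraries. A lncRNA gene on the same strand (ENSG00000285846, also at 0 in all libraries) overlaps it, and its exons cover 750 of the 2964 exonic bases of CYP26A1 (25.3%) in GENCODE v44, which leaves 2214 bases to CYP26A1 alone. How reads on shared bases were counted is not given in the sources used here, so the limit of 0.156 to 0.202 CPM holds for reads that were assigned to CYP26A1. No difference between groups could be measured.

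RARB (ENSG00000077092, chr3:24687887-25597932, plus strand), a retinoic acid receptor that is also a target of retinoic acid, was lowest in static cells on each day. RARB levels on Day 12 were 0.95 and 1.03 FPKM in NP-IWP2, 1.53 and 1.63 FPKM in P-DF, and 1.40 and 1.70 FPKM in P-IWP2. RARB levels on Day 16 were 0.49 and 0.53 FPKM in NP-IWP2, 0.85 and 0.82 FPKM in P-DF, and 1.04 and 1.05 FPKM in P-IWP2. All passaged libraries were above the static ones of the same day. The difference was called on Day 16 for P-DF (0.95 ± 0.20, adjusted p = 0.013) and P-IWP2 (1.32 ± 0.19, adjusted p = 0.00324). On Day 12 it was 0.76 ± 0.19 (adjusted p = 0.0578) and 0.65 ± 0.19 (adjusted p = 0.166). Without replicate 5 that of P-DF was called (adjusted p = 0.0026, and 0.0026 to 0.276 over the alternatives). That of P-IWP2 was then 0.88, with replicate 6 alone for P-IWP2 on Day 12. RARB was the only member called higher in passaged than in static cells, on either day and in either passaged group, with all libraries or without replicate 5.

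**Figure D3:**
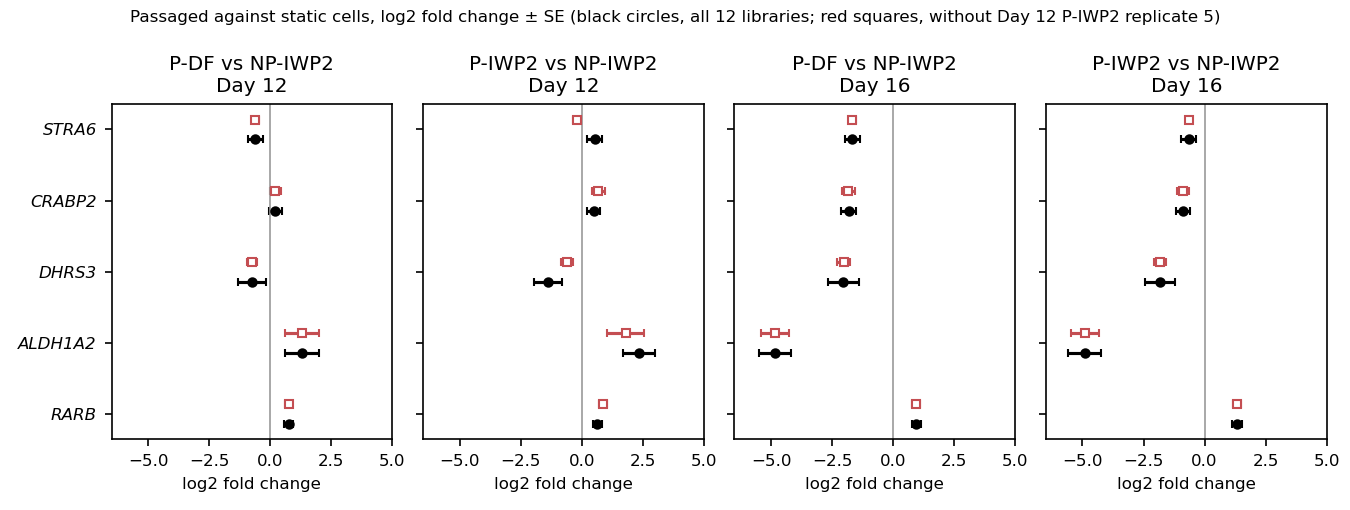
Log2 fold change ± SE (horizontal axes) of passaged against NP-IWP2 cells on Day 12 and Day 16 for STRA6, CRABP2, DHRS3, ALDH1A2 and RARB; black circles come from all 12 libraries and red squares from 11, without Day 12 P-IWP2 replicate 5. On Day 16 RARB lies at 0.95 and 1.32, and the other 4 genes lie below 0. RBP4 and ALDH1A1 are left out because each has passaged groups at 0 counts, where the fitted fold shows direction only.

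On Day 12, 1 of 7 members tested was called for P-DF (RBP4), where 4.01% of all genes were called, and 1 of 7 for P-IWP2 (RBP4 again), against 1.66% of all genes. On Day 16, P-DF had 4 members lower (RBP4, ALDH1A2, STRA6, CRABP2) and 1 higher (RARB), against 15.3% of all genes called, 9.86% lower and 5.39% higher. P-IWP2 had 2 lower (RBP4, ALDH1A2) and 1 higher (RARB), against 17.1% of all genes called, 9.95% lower and 7.15% higher. Cell type markers moved on that day as well. Summed cardiomyocyte markers were 8195 to 10149 FPKM in passaged and 3117 to 3832 FPKM in static libraries, with 6 (P-DF) and 5 (P-IWP2) of 11 called higher and 1 lower in each. Of the epicardial markers 7 of 10 tested were lower in each, and of the stromal markers 5 and 6 of 6. Their part in the members' differences was not tested. The median log2 fold change of the 7 members was -0.61 for P-DF and 0.49 for P-IWP2 on Day 12, and -2.03 and -1.84 on Day 16, where that of all genes tested was -0.0035, 0.0092, -0.015 and -0.030. Without Day 12 P-IWP2 replicate 5 the members' median for P-IWP2 on Day 12 turned from 0.49 to -0.20. Placing the members at 0 counts at their bound left these medians as they were. Without that library, 5 members were called for P-DF on Day 12 (23% of all genes) and 3 for P-IWP2 (16%). On Day 16 all 7 were then called for both P-DF (34.1%) and P-IWP2 (36.4%), 6 lower and RARB higher in each. The 2 passaged groups share their static libraries, so these counts are not independent of each other.

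Within the passaged cells, the comparison asked what IWP2 adds to passaging. No member, and 0% of all 19505 genes, was called by edgeR between P-IWP2 and P-DF on Day 12 or on Day 16. At an unadjusted p under 0.05 there were 2061 genes on Day 12 and 1567 on Day 16, DESeq2 called 173 and 112 genes, limma called 0 genes and 1 gene, and edgeR without its filter on low counts called 1687 and 645. STRA6 was 1.03 ± 0.32 higher in P-IWP2 than in P-DF on the log2 scale on Day 16 (adjusted p = 0.471), and CRABP2 was 0.95 ± 0.29 higher (adjusted p = 0.463). Without replicate 5 of Day 12, STRA6 was called in this comparison on Day 16 (adjusted p = 0.00334; 0.000324 to 1 over the alternatives), where 2.58% of all genes were called. A missed threshold does not show that the passaged groups were alike.

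Between Day 12 and Day 16, with all libraries, the members called in passaged cells were lower on Day 16. In NP-IWP2, ALDH1A2 rose by 4.51 ± 0.63 on the log2 scale (adjusted p = 0.0148), the 1 call among 7 members where 1.98% of all genes were called. In P-DF, CRABP2 fell by 2.06 (SE 0.29, adjusted p = 0.00326), DHRS3 fell by 2.46 (SE 0.63, adjusted p = 0.034) and RARB fell by 0.66 (SE 0.19, adjusted p = 0.0493). These were 3 of 7 members, all lower, where 13.6% of all genes were called, 6.81% lower and 6.79% higher. In P-IWP2, CRABP2 fell by 1.38 (SE 0.28, adjusted p = 0.00945), ALDH1A2 fell by 2.73 (SE 0.71, adjusted p = 0.0233), and ALDH1A1 went from 886 and 4 counts to none (adjusted p = 0.0331). They were again 3 of 7, where 27% of all genes were called, 14.1% lower and 12.9% higher. The ALDH1A1 value in P-IWP2 rests on replicate 5, without which it compares 4 counts with 0. RARB was lower on Day 16 than on Day 12 in every treatment, without overlap of the days, while keeping its order between static and passaged cells. Without replicate 5, 6 members were called in NP-IWP2 (18.3% of all genes), 3 higher (ALDH1A2, RBP4, STRA6) and 3 lower (ALDH1A1, DHRS3, RARB), against 9.84% higher and 8.45% lower. Without it, 4 were called in P-DF (30.8%) and 3 in P-IWP2 (25.1%). ALDH1A2 was not among the 3 in P-IWP2 then (adjusted p = 0.0712; 0.000758 to 0.227 over the alternatives).

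**Figure D4:**
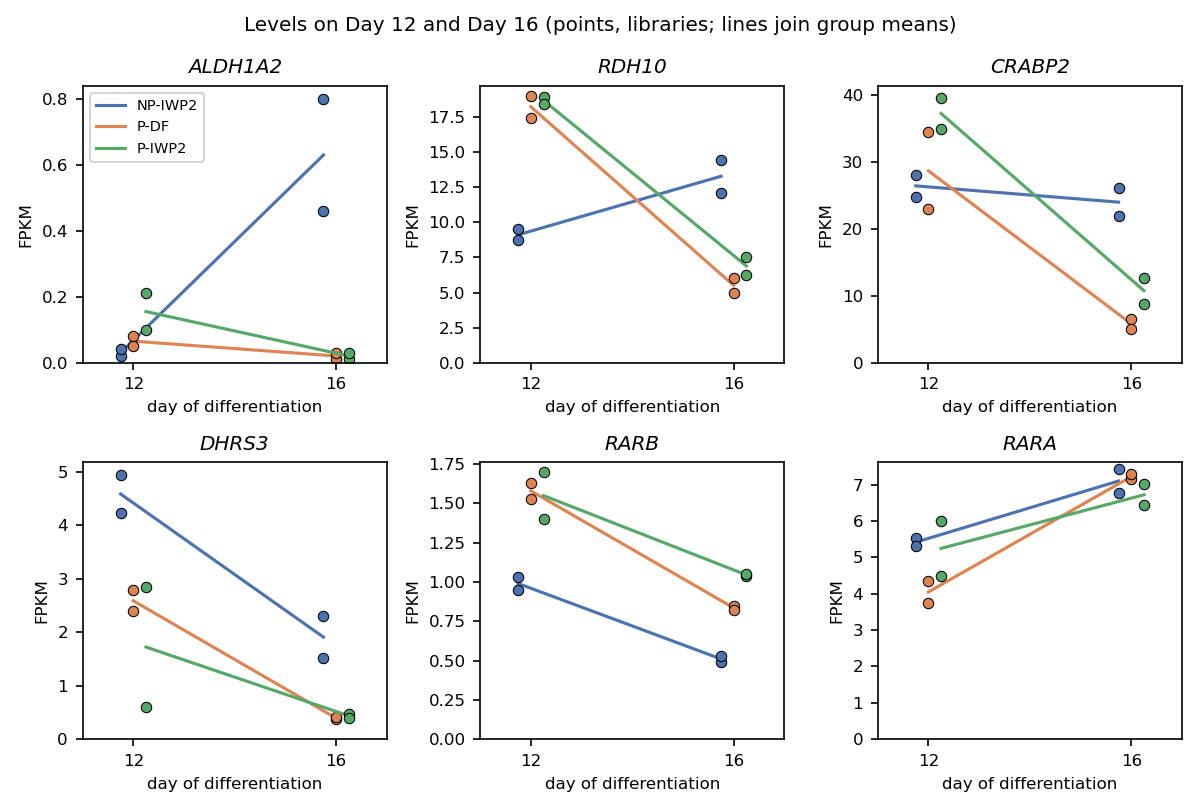
FPKM (vertical axes from 0) on Day 12 and Day 16 of ALDH1A2, RDH10, CRABP2, DHRS3, RARB and RARA; points are libraries, lines join the means of 2, and colours mark treatments. ALDH1A2 and RDH10 rise in NP-IWP2 and have lower means on Day 16 than on Day 12 in both passaged groups, while DHRS3 and RARB are lower on Day 16 in all 3 treatments.

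The time change of ALDH1A2 differed between static and passaged cells. The interaction of treatment and day was -6.13 ± 0.98 for P-DF (adjusted p = 0.0399) and -7.23 ± 0.94 for P-IWP2 (adjusted p = 0.0119). It was the only member called in either, where 0.482% and 1.84% of all genes were called. The static change of 3 and 5 counts to 72 and 105 enters both values. CRABP2, called lower with time in both passaged groups but not in static cells, had interactions of -2.03 ± 0.40 (P-DF, adjusted p = 0.0662) and -1.36 ± 0.39 (P-IWP2, adjusted p = 0.102). Without replicate 5, ALDH1A2, CRABP2 and DHRS3 were called in both interactions and STRA6 in that of P-DF, where 8.09% and 8.33% of all genes were called.

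The rest of the pathway was followed through 74 further retinoid genes in 5 lists, of which 55 passed the filter on low counts. On Day 12, 1 was higher and 5 lower in P-DF than in static cells (0.697% and 3.32% of all genes), and 2 were higher and 2 lower in P-IWP2 (0.328% and 1.33%). On Day 16, 2 were higher and 13 lower in P-DF (5.39% and 9.86%), and 2 were higher and 16 lower in P-IWP2 (7.15% and 9.95%). Without Day 12 P-IWP2 replicate 5, the Day 12 counts were 11 higher and 16 lower in P-DF (8.87% and 14.1% of all genes) and 7 and 13 in P-IWP2 (5.89% and 10.2%). The Day 16 counts were then 6 higher and 20 lower in each (15.3% and 18.8% for P-DF, 17.1% and 19.3% for P-IWP2). The median log2 fold change of the 55 was -0.09 and 0.001 on Day 12 and -0.27 and -0.20 on Day 16 for P-DF and P-IWP2. The Day 16 counts by list are read against the same shares of all genes. For genes of transport and storage (14 tested), 4 were lower in P-DF and 5 in P-IWP2 with all libraries, and without replicate 5 there were 7 lower and 1 higher in P-DF and 6 lower and 1 higher in P-IWP2. Of the dehydrogenases and reductases (14 tested), 2 were higher and 2 lower in P-DF, and 2 higher and 3 lower in P-IWP2. Of the clearance genes (3 tested), 1 was lower in each. Of the receptors and their coregulators (12 tested), 1 was lower in P-DF and 2 in P-IWP2. Of the genes held to respond to retinoic acid (12 tested), 5 were lower in each with all libraries, and without replicate 5 there were 6 lower and 1 higher in P-DF and 7 lower and 2 higher in P-IWP2. On Day 12 the lower genes in P-DF were 1 of transport, 1 dehydrogenase and 3 responsive genes, and those in P-IWP2 were 2 of transport.

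TTR, the partner of RBP4 in blood, was at 50.2 and 35.4 FPKM in NP-IWP2 on Day 12 and 86.7 and 67.9 FPKM on Day 16, and at 0.26 FPKM or less in all passaged libraries. It was called lower in all 4 comparisons (adjusted p = 0.000114 and 3.82e-05 for P-DF, 0.000138 and 4.31e-05 for P-IWP2), and it is also among the hepatic markers. AKR1B10, a retinaldehyde reductase, had 43 to 95 counts in static libraries and at most 1 count in passaged ones other than Day 12 P-IWP2 replicate 5, which held 13. RBP3 had 48 and 38 counts in static cells on Day 16 and none in passaged cells on that day. CYP2S1 held 39 and 43 counts in static cells on Day 16 and at most 1 in passaged cells.

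RDH10, the retinol dehydrogenase that makes retinaldehyde, changed its order between the days. RDH10 was at 8.74 and 9.50 FPKM in NP-IWP2 libraries of Day 12, at 19.0 and 17.5 FPKM in P-DF, and at 19.0 and 18.5 FPKM in P-IWP2. It was at 12.1 and 14.5 FPKM in NP-IWP2 libraries of Day 16, at 4.93 and 6.07 FPKM in P-DF, and at 7.51 and 6.28 FPKM in P-IWP2. Passaged libraries were all above the static ones on Day 12 and all below them on Day 16. RDH10 was called higher on Day 12 (1.09 ± 0.14, adjusted p = 0.00408 for P-DF; 1.02 ± 0.14, adjusted p = 0.00751 for P-IWP2) and lower on Day 16 (-1.04 ± 0.14, adjusted p = 0.00189; -0.67 ± 0.13, adjusted p = 0.0112). With time it rose in NP-IWP2 by 0.65 ± 0.13 (adjusted p = 0.0466) and fell by 1.47 in P-DF (adjusted p = 0.000649) and by 1.04 in P-IWP2 (adjusted p = 0.00172). Its interactions were -2.13 ± 0.19 (adjusted p = 0.0072) and -1.69 ± 0.19 (adjusted p = 0.0106).

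The genes higher in passaged cells on Day 16 were RDH13 (0.88 ± 0.16 in P-DF, adjusted p = 0.0075; 0.74 ± 0.16 in P-IWP2, adjusted p = 0.0141), a retinol dehydrogenase, and ADH5 (0.67 ± 0.18, adjusted p = 0.0398; 0.81 ± 0.18, adjusted p = 0.0181), a broadly expressed alcohol dehydrogenase. On Day 12, MEIS2, a homeobox gene, was higher in P-IWP2 (1.28 ± 0.24, adjusted p = 0.0316), and RBP7, a cellular retinol-binding protein, was lower there (-2.30 ± 0.46, adjusted p = 0.0437), at 1.04 FPKM in replicate 5 and 2.95 FPKM in replicate 6 against 10.8 and 9.14 FPKM in static cells. MEIS2 stood at 28.8 FPKM in replicate 5 and 13.2 FPKM in replicate 6, against 8.11 and 8.48 FPKM in static cells. RBP7 rose from Day 12 to Day 16 in P-DF (1.56 ± 0.44, adjusted p = 0.0456) and in P-IWP2 (3.05 ± 0.47, adjusted p = 0.00323). Without replicate 5, with replicate 6 alone for P-IWP2 on Day 12, RBP7 was still lower in P-IWP2 on Day 12 (-1.67). It still rose with time in P-IWP2 (2.42).

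Of the receptors, RARA rose with time in P-DF (1.09 ± 0.14, adjusted p = 0.00205) and P-IWP2 (0.78 ± 0.14, adjusted p = 0.00551), and in NP-IWP2 the change was 0.51 ± 0.14 (adjusted p = 0.0941). RARA thus rose where RARB fell in P-DF. RARG was called lower in P-IWP2 than in static cells on Day 16 (-1.85 ± 0.54, adjusted p = 0.0449), with 0.54 and 0.24 FPKM against 1.60 and 1.78 FPKM. Its difference of P-IWP2 from P-DF on Day 16 was -0.16 ± 0.56 (adjusted p = 0.981). RXRG, a retinoid X receptor, fell by 2.95 with time in P-DF (SE 0.37, adjusted p = 0.00183), from 37.9 and 26.2 FPKM to 3.83 and 3.11 FPKM. LRP2, an endocytic receptor that takes up retinol carriers, fell by 1.86 in P-DF (SE 0.36, adjusted p = 0.0115), and RARRES2, the gene of chemerin, fell by 1.70 (SE 0.34, adjusted p = 0.0139). In P-IWP2 the time changes of RXRG (-2.98 ± 0.37, adjusted p = 0.00146) and LRP2 (-1.25 ± 0.345, adjusted p = 0.0282) were called as well. That of RARRES2 was not (-0.80 ± 0.32, adjusted p = 0.0884). ADH5 rose with time in P-DF (0.77 ± 0.18, adjusted p = 0.027) and P-IWP2 (1.05 ± 0.18, adjusted p = 0.00546), and RDH11 rose in P-IWP2 (0.89 ± 0.17, adjusted p = 0.00787).

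Several retinoid genes stood apart in Day 12 P-IWP2 replicate 5, and the calls of NR2F1, CYP26B1 and RARG over time in P-IWP2 were lost without it. NR2F1, a nuclear receptor of atrial cells that is held to respond to retinoic acid, had 3812 counts in that library and 4 in replicate 6, and none in P-IWP2 on Day 16 (adjusted p = 0.0353, and 0.0964 without replicate 5). NR2F2, its relative, was at 46.4 FPKM in replicate 5 and 2.75 FPKM in replicate 6, and at 1.82 to 4.05 FPKM in the other 10 libraries. CYP26B1, which like CYP26A1 degrades retinoic acid, was at 5.67 FPKM in replicate 5, 0.31 FPKM in replicate 6 and 0.09 to 0.60 FPKM elsewhere, and its fall with time in P-IWP2 was called (-3.60 ± 1.02, adjusted p = 0.0309, and -0.56 ± 0.55, adjusted p = 0.499, without it). RARG was at 2.88 FPKM in replicate 5 and 0.78 FPKM in replicate 6 (adjusted p of its fall 0.0391, and 0.231 without replicate 5), LRAT, which esterifies retinol for storage, at 35 and 13 counts, and CYP2S1 at 44 and 10 counts. The falls of LRAT and CYP2S1 with time were called with replicate 5 (adjusted p = 0.012 and 0.00999) and without it (0.0208 and 0.0138). ALDH1A3 did not pass the filter and held at most 6 counts.

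**Figure D5:**
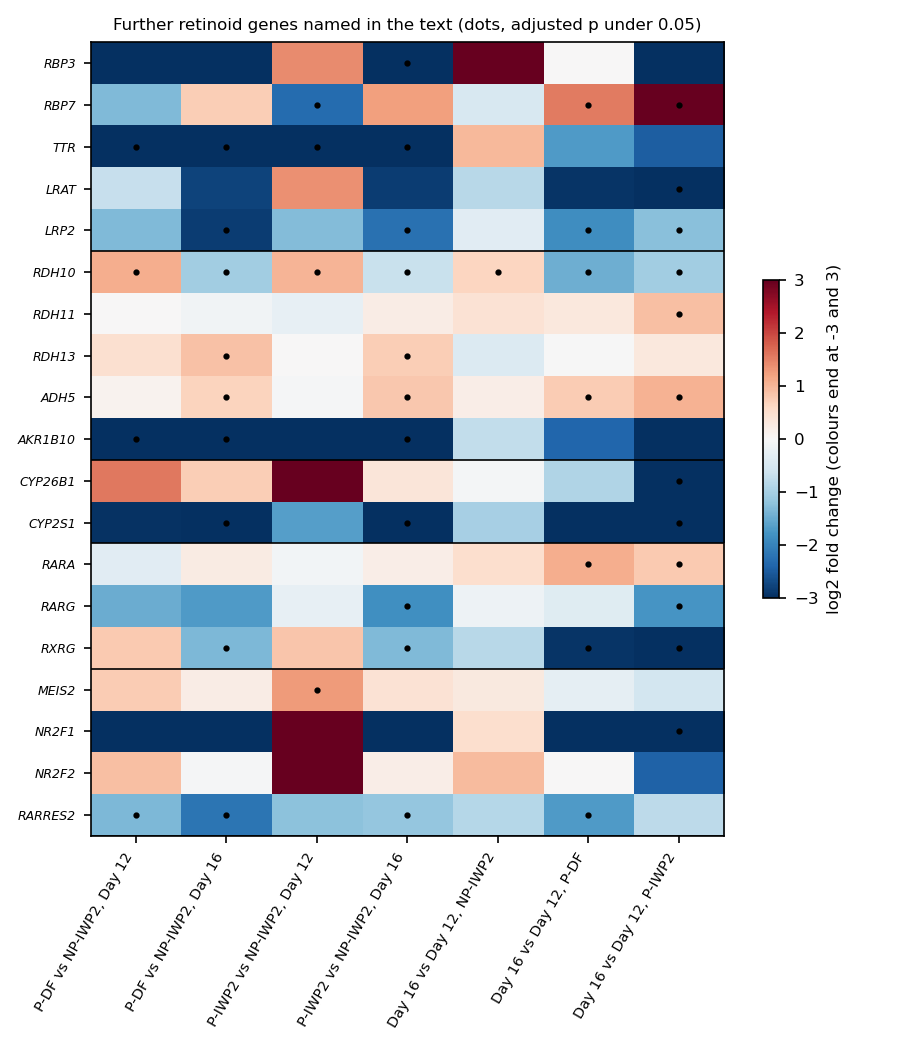
Log2 fold change (colour, ending at -3 and 3) of the 19 further retinoid genes that were tested and are named in the text, in 4 comparisons of passaged with NP-IWP2 cells and 3 of Day 16 with Day 12; rows are grouped as transport and storage, dehydrogenases, clearance, receptors with coregulators, and responsive genes, and dots mark calls. RDH10 is the one row called in all 7 columns, higher in passaged cells on Day 12 and lower on Day 16; for genes with a group at 0 counts the colour shows direction only.

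The genes whose pattern over the 12 libraries lay closest to each tested member were found by the root mean square (RMS) difference of log2 CPM, each centred on its own mean. RBP4 lay closest to APOA2 (RMS 0.21) and FGA (0.32), an apolipoprotein and a fibrinogen chain, against its own standard deviation (SD) of 4.27. ALDH1A1 lay closest to RAB37 (0.53) and GNG2 (0.74), with an SD of 3.49. DHRS3 lay closest to RSPO3 (0.35), a WNT agonist, and KCNH1 (0.38), with an SD of 1.29. CRABP2 (SD 0.86) lay at 0.34 from SCPEP1 and RARB (SD 0.56) at 0.21 from SRCIN1. For STRA6 (SD 0.66) the nearest were SAMD15 (0.23) and GALNT4 (0.24), and for ALDH1A2 (SD 1.63) OLFM3 (0.62) and GBP1 (0.65). The nearest genes of RBP4 differed from it by far less than its own SD, while those of ALDH1A2, STRA6, CRABP2 and RARB lay farther off in proportion.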

How the data were processed

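Methods of the study name Cutadapt 1.9.1 (trimming), HISAT2 2.0.1 (alignment, hg38), HTSeq 0.6.1 (counts on genes) and DESeq2. The deposited table gives read counts that the authors left unnormalized and FPKM: all 741672 deposited FPKM values equal the count over exon length and library total within 0.011. No row lacked a gene, and libraries were not pooled.

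Counts were tested here with edgeR 4.0.16 in R 4.3.3 (TMM, filterByExpr, quasi-likelihood, Benjamini-Hochberg over 19505 genes, 12 libraries as 6 groups, threshold 0.05). CRABP1 and CYP26A1 did not pass the filter. The members, lists and rules were chosen with earlier results of these data known. Named further genes were the called ones with the largest change, at most 3 a direction in each comparison of passaged with static cells and of time, and TTR, RDH10, CYP26B1, ALDH1A3, RARA, RARG and NR2F2 in any case. Marker genes, overlapping genes and those nearest to a member are named beside the member. A few genes that these rules name are not reported here. Alternatives were DESeq2 1.42.0, total counts, no filter, limma 3.58.1 on log2(FPKM + 1), a model of the compared groups, each library left out, and a replicate block. Scripts were tested on simulated counts. Tables used pandas 2.3.3 and numpy 2.4.6, and figures matplotlib 3.10.9. Counting intervals (95%, exact) and the limit of 3 counts cover counting error only. Promoters came from RefSeq (GRCh38.p14), with all 9 members matched, and gene positions from GRCh38.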

Additional observations from a re-analysis of the deposited data

Results flagged for a closer look

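ALDH1A2 changed differently with time in passaged and static cells: the interaction of treatment and day was -6.13 on the log2 scale for P-DF and -7.23 for P-IWP2, each past the threshold. RDH10 showed the same kind of difference, with interactions of -2.13 (P-DF) and -1.69 (P-IWP2). Of the 55 further retinoid genes tested, 1 was lower in the P-DF interaction, and 1 was higher and 2 were lower in that of P-IWP2. Over all genes 0.482% and 1.84% were called, and of these further genes RDH10 and RBP7 alone are named here. For RBP7 the interaction was 3.53 for P-IWP2 (adjusted p = 0.0295) and 2.04 for P-DF (adjusted p = 0.2). Without Day 12 P-IWP2 replicate 5 the RBP7 interaction of P-DF was 2.04 (adjusted p = 0.00423), past the threshold. That of P-IWP2 was 2.90, with replicate 6 alone for P-IWP2 on Day 12. Groups of 2 libraries are too small for a test of single outlying libraries.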

How the results depend on the processing

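Counts of members called are given here beside those of the report in the order P-DF against NP-IWP2 on Day 12 and 16 (1 and 5), P-IWP2 against NP-IWP2 (1 and 3), P-IWP2 against P-DF (0 and 0), time in NP-IWP2, P-DF and P-IWP2 (1, 3 and 3) and the interactions of P-DF and P-IWP2 (1 and 1). DESeq2 gave 3 and 7, 1 and 6, 1 and 0, 2, 3 and 4, and 2 and 3. Total counts in place of TMM gave 1 and 6, 1 and 5, 0 and 0, 2, 3 and 6, and 2 and 2. No filter gave 2 and 7, 3 and 7, 2 and 2, 4, 2 and 5, and 3 and 4, and limma 1 and 4, 1 and 4, 0 and 0, 1, 3 and 2, and 2 and 2. A model of only the groups compared gave 5 and 7, 0 and 7, 0 and 1, 6, 4 and 0, and 4 and 0. Leaving out 1 library at a time gave 1 to 5 and 2 to 7, 1 to 5 and 3 to 7, 0 to 3 and 0 to 1, 0 to 6, 0 to 4 and 1 to 4, and 0 to 4 and 0 to 6. The highest of these came without Day 12 P-IWP2 replicate 5 or 6. The lowest for P-DF on Day 16 (2) and over time (0) came without Day 16 P-DF replicate 4, and P-DF on Day 16 had 3 without Day 16 P-DF replicate 3 or NP-IWP2 replicate 2. Time in P-DF had 1 call with any 1 other library left out except those of Day 12 P-IWP2. Time in NP-IWP2 had 0 with any 1 NP-IWP2 library left out, and time in P-IWP2 had 1 without either Day 16 P-IWP2 library. The interaction of P-DF had 0 with any 1 NP-IWP2 or P-DF library left out, and that of P-IWP2 had 0 without either Day 12 NP-IWP2 library, Day 16 NP-IWP2 replicate 2 or Day 16 P-IWP2 replicate 6. Where a group is left with 1 library, it is assumed to vary like the others.

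Of 19 called member comparisons, 332 values under the alternatives kept their direction, 262 past the threshold and 70 not. The time changes of DHRS3 and RARB in P-DF were called by 7 and 6 of 18 alternatives, that of ALDH1A1 in P-IWP2 by 8, and the ALDH1A2 interactions by 9 (P-DF) and 13 (P-IWP2). The cause was not tested. Same-numbered libraries of Day 12 and Day 16 deviated from their group means with correlations of 0.075 (NP-IWP2), -0.0015 (P-DF) and -0.031 (P-IWP2). With 1 correlation per treatment, these values cannot show whether same-numbered libraries came from the same culture. The replicate block gave 0, 1 and 2 calls for time in NP-IWP2, P-DF and P-IWP2 and 0 and 3 for the interactions. With 2 libraries a group, changes in genes of few counts, such as ALDH1A2, CRABP1 and CYP26A1, are the least certain. Genes called over all those tested, with the range over the alternatives, were, in the same order of comparisons, 783 (82 to 5478), 2975 (556 to 6992), 323 (0 to 3129), 3336 (915 to 7102), 0 (0 to 5951), 0 (0 to 645), 386 (2 to 5075), 2654 (473 to 6286), 5270 (0 to 9508), 94 (0 to 2370) and 358 (3 to 6072).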
